A study of Mus musculus with 14 samples.

Results

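The 10 genes described here mark the macrophages of the liver, and were followed mouse by mouse in whole-liver RNA. Of these, 5 are markers of resident Kupffer cells (*Clec4f*, *Vsig4*, *Cd5l*, *Timd4* and *Marco*). The other 5 are expressed by macrophages of many tissues (*Adgre1*, *Csf1r*, *C1qa*, *C1qb* and *C1qc*). The rows were taken by gene name, and these 10 of the 55487 genes in the table were all found. All 10 were among the 12653 genes with enough reads to be tested, and all 10 had reads in each of the 14 libraries.

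Male TALLYHO/JnG mice, a polygenic model of type 2 diabetes in which the males become glucose intolerant and insulin resistant, were studied at an age between 8 and 12 weeks. The vehicle group (*n*=7) was gavaged with water and the indole group (*n*=7) with indole at 20 mg/kg, 2 times a day on 7 days. Indole is a tryptophan metabolite made by gut bacteria. All mice of both groups then had a glucose and an insulin tolerance test, with further doses in between, and the right liver lobe was taken the day after the second test. Each library is 1 mouse and carries its library name, from G1 to G14. The libraries analysed here include no ungavaged mice and no mice of another strain, and no blood glucose value is attached to a library.

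Kupffer cells are macrophages that sit in the liver sinusoids and take up particles, bacteria and old red blood cells from the blood. *Clec4f* is a lectin made almost only by them, *Vsig4* a receptor for complement fragments, *Timd4* a receptor for phosphatidylserine on dying cells, *Marco* a scavenger receptor, and *Cd5l* a secreted protein that macrophages make under liver X receptor control. When resident Kupffer cells are lost, monocytes from the blood can take their place, and *Timd4* is acquired late in these recruited cells. Of the general genes, *Adgre1* encodes F4/80, *Csf1r* the receptor on which macrophage survival depends, and *C1qa*, *C1qb* and *C1qc* the 3 chains of C1q, the recognition molecule of the classical complement pathway. Resident and general genes were therefore set against each other. In whole liver, fewer macrophages and less of an RNA per macrophage cannot be told apart.

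Promoters are shown for 4 resident genes because these stood at the 2 ends of an order: *Clec4f* and *Vsig4* were raised least, and *Cd5l* and *Marco* most, in the mouse with the most macrophage RNA. Each run reads 5′ to 3′ on the strand of the gene, from 250 bases before to 50 bases after the start in RefSeq (GRCm38.p6). Capitals mark GAGGAA, or TTCCTC on the opposite strand, the core letters of the motif of PU.1, the factor that macrophages depend on. The *Clec4f* window is chr6:83656067-83656366 (minus strand), that of *Vsig4* chrX:96293389-96293688 (minus strand), that of *Cd5l* chr3:87357631-87357930 (plus strand) and that of *Marco* chr1:120504975-120505274 (minus strand).
Clec4f: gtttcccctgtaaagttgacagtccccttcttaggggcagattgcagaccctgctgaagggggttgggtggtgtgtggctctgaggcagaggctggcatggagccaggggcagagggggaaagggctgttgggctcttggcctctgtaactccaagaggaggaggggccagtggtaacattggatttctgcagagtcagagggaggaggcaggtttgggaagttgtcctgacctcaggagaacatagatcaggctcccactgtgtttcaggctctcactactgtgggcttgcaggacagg
Vsig4: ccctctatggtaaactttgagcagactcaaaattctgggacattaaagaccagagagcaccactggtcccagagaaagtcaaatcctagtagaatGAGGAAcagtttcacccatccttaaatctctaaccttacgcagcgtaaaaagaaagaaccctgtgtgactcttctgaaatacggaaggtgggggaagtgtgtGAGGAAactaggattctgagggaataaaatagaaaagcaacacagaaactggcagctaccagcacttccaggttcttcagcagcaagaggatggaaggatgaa
Cd5l: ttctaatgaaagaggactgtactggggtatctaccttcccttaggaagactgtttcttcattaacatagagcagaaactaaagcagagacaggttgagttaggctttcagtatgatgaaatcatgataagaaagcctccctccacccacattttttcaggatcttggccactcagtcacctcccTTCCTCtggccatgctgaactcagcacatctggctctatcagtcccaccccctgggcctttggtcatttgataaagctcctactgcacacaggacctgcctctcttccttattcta
Marco: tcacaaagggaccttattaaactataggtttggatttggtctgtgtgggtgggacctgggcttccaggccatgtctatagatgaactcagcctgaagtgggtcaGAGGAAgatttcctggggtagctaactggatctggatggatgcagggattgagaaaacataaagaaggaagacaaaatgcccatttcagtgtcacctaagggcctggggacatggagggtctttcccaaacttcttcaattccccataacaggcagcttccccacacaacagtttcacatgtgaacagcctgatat

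The *Clec4f* window held no match in these letters, *Vsig4* held 2, and *Cd5l* and *Marco* held 1 each. RefSeq promoters were matched for 7 of the 10 genes: the 5 resident ones, *C1qb* and *C1qc*. The PU.1 core, searched on both strands, was present in 5 of these 7 windows (not in *Clec4f* or *Timd4*), against 28.3% of 32851 promoters of 300 bases. TGCTGA, the core of a half-site for MAF factors, was present in 5 of 7 (not in *Marco* or *C1qc*), against 19.5% of all promoters. CANNTG, the E-box, was present in 5 of 7 (not in *Clec4f* or *Vsig4*), against 72.3%. In *C1qb* a MAF half-site and an E-box shared 2 bases. With *C1qb* and *C1qc* as the only general genes with a window, the 3 motifs cannot be compared between resident and general genes. *Clec4f* and *Vsig4*, at one end of that order, differed from each other in the PU.1 core.

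The libraries held between 15197498 and 21060376 counted reads. In the macrophage genes indole mouse G8, the shallowest of the 14, stood apart. In the vehicle group mouse G11 was highest in 6 of the 10 genes and mouse G1 in the other 4, with sums of 117 and 103 CPM over the general genes, and only in *Marco* did G11 stand far from its group. Mouse G8 was the highest of the 14 in 9 of the 10 genes, where 9.18% of all tested genes had their highest value in this mouse. Mouse G10, in the vehicle group, was the lowest of the 14 in 4 of the 10, where 6.90% of all tested genes had their lowest value there. The results that rest on G8 or G11 are given with and without them. No label gives a batch or a shared cage, and all 14 were counted as separate mice.

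The resident genes overlapped between the groups, and in 4 of the 5 the indole median lay below that of vehicle, by less than the spread between mice. *Clec4f* (chromosome 6, 83644542 to 83656187) had a lowest, median and highest value of 21.6, 42.9 and 50.02 normalised read counts on the CPM scale (reads of the gene out of each 1000000 counted reads) in the vehicle group, and 30.7, 47.7 and 90.4 CPM in the indole group. Above every vehicle mouse were 3 indole mice, G8 by far and the next at 54.5 CPM, and 4 of 7 were above the vehicle median. *Vsig4* (chromosome X, 96247203 to 96293438) ran from 6.74 over 13.1 to 18.03 CPM with vehicle, and from 8.40 over 12.3 to 21.0 CPM with indole. Only G8 exceeded the vehicle range in *Vsig4*, and by little.

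*Cd5l* (chromosome 3, 87357881 to 87371073) was between 17.8 and 52.8 CPM in the vehicle group, with a median of 33.7 CPM. In the indole group its lowest value was 21.3, its median 29.2 and its highest 128.9 CPM. That highest value, in G8, was 4.58 times the mean of the other 6 indole mice, all of which lay at or below 35.03 CPM and inside the vehicle range. *Timd4* (chromosome 11, 46810800 to 46844332), the least abundant of the 10 with 24 to 135 reads a library, ran from 1.60 over 3.79 to 4.43 CPM with vehicle and from 2.83 over 3.26 to 9.08 CPM with indole. Its lowest vehicle mouse was G6, not the mouse that was lowest in most other genes.

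*Marco* (chromosome 1, 120474538 to 120505024) was the most variable of the 10. The vehicle mice lay at 5.35 (lowest), 12.95 (median) and 47.8 CPM (highest), and the indole mice at 5.73, 10.6 and 43.7 CPM. In each group 1 mouse stood far above the rest: G11, at 4.39 times the median of the other vehicle mice, and G8, at 4.68 times the mean of the other indole mice. Next below them were 20.2 CPM in the vehicle and 14.3 CPM in the indole group. *Marco* was the only one of the 10 in which a vehicle mouse had the highest value.

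The general macrophage genes had the same shape, with 6 indole mice in or near the vehicle range and G8 above it. *Adgre1* (chromosome 17, 57358691 to 57483527) was at 3.86, 5.52 and 7.92 CPM (lowest, median and highest) with vehicle, and at 3.66, 5.41 and 16.5 CPM with indole. *Csf1r* (chromosome 18, 61100598 to 61132149) was at 9.62, 21.4 and 26.8 CPM with vehicle and at 13.6, 23.6 and 46.4 CPM with indole. It was the general gene with the smallest excess in G8, 2.19 times the mean of the other indole mice. The 3 C1q genes lie side by side on chromosome 4 (*C1qb* 136880129 to 136886187, *C1qc* 136889804 to 136893065, *C1qa* 136895917 to 136898803). *C1qa* was at 14.4, 22.8 and 30.1 CPM with vehicle and at 12.2, 18.1 and 57.2 CPM with indole. *C1qb* was at 11.2, 19.3 and 25.6 CPM and then 12.1, 17.2 and 49.7 CPM. *C1qc* was at 13.3, 21.8 and 27.9 CPM and then 11.2, 18.3 and 55.4 CPM, with a single indole mouse, G8, above the vehicle median.

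**Figure D1:**
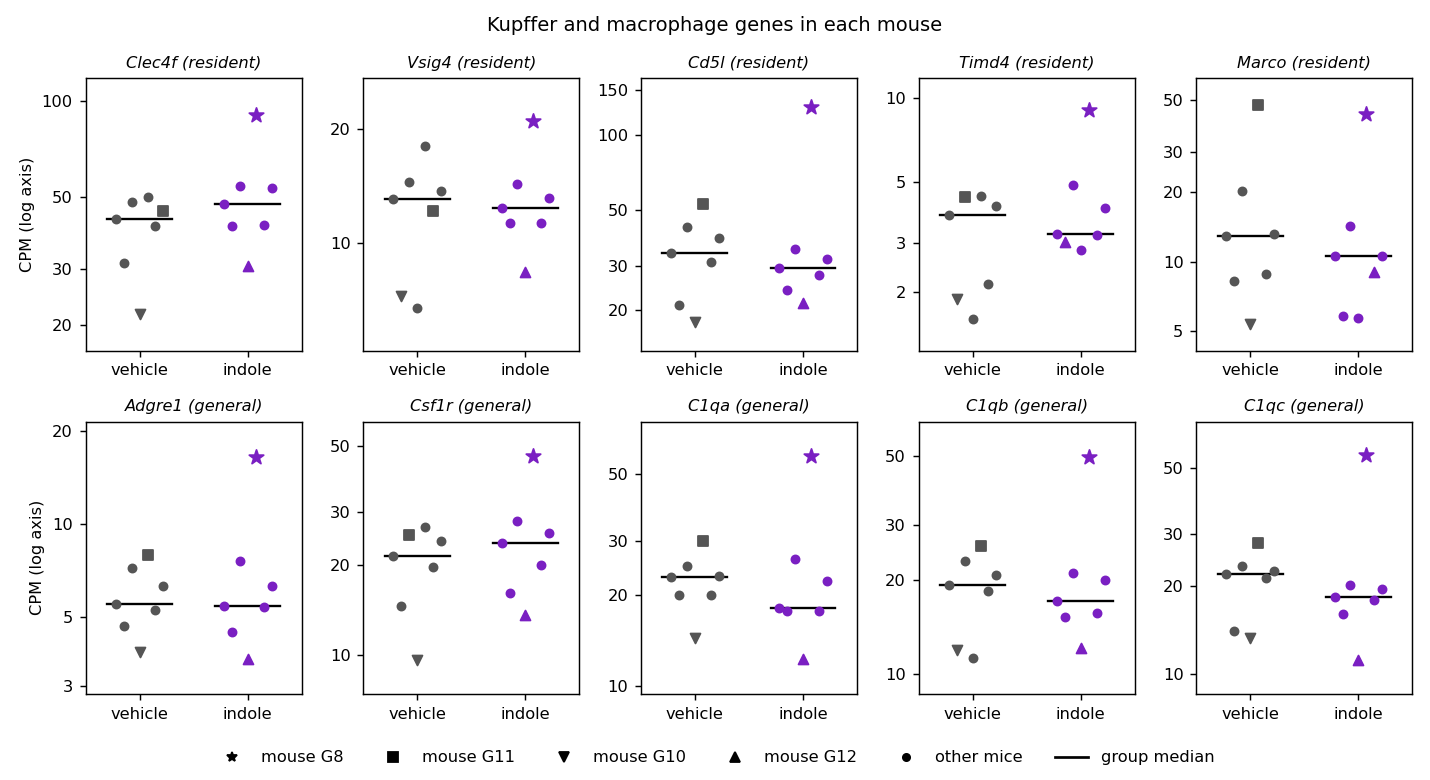
CPM of the 10 genes on a log axis, 1 point a mouse, vehicle (grey) and indole (purple) side by side, with a line at each group's median and separate symbols for mice G8, G11, G10 and G12. The star (G8) is at the top of the indole group in all 10 panels, and the square (G11) reaches it only in *Marco*.

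Indole was compared with vehicle in edgeR's quasi-likelihood test over all 12653 tested genes. At an adjusted *p* below 0.05 the test called 0% of all genes and none of the 10, the smallest adjusted *p* being 0.998. At an unadjusted *p* below 0.05 it called 482 genes, or 3.81%, and again none of the 10. DESeq2 on 22535 genes also gave 0 at the adjusted threshold and 719 at the unadjusted one, with none of the 10 among either. The log2 fold change of indole over vehicle was above 0 in 9 of the 10, against 51.3% of all tested genes. These 9 were not independent of each other, because G8 was the highest mouse in each.

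Among the resident genes, *Timd4* had the largest log2 fold change, 0.42 (SE 0.290), with means of 3.20 ± 1.26 and 4.33 ± 2.21 CPM (SD, vehicle and indole, *n*=7 each). *Clec4f* followed at 0.35 (SE 0.233), with means of 40.01 ± 10.2 and 51.2 ± 19.1 CPM. *Cd5l* was at 0.32 (SE 0.428), *Vsig4* at 0.092 (SE 0.221) and *Marco* at -0.24 (SE 0.577). In edgeR the unadjusted *p* was 0.165 for *Timd4*, 0.154 for *Clec4f*, 0.472 for *Cd5l*, 0.683 for *Vsig4* and 0.684 for *Marco*, and in an exact permutation test of each gene alone (two-sided, over the 3432 relabellings of the mice) it was 0.212, 0.213, 0.821, 0.610 and 0.667. The indole SD of *Cd5l*, 38.4 CPM around a mean of 42.5, fell to 5.05 around 28.1 CPM without G8.

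Among the general genes the log2 fold changes were 0.29 for *Csf1r* (SE 0.280), 0.26 for *Adgre1* (SE 0.285) and 0.20 for *C1qb* (SE 0.309). *C1qa* and *C1qc* were both at 0.13 (SE 0.303 and 0.320). The unadjusted *p* in edgeR was 0.326 for *Csf1r*, 0.370 for *Adgre1*, 0.524 for *C1qb*, 0.666 for *C1qa* and 0.695 for *C1qc*, and the exact permutation test gave 0.397, 0.691, 0.729, 0.994 and 0.993. These values were close to or below their standard errors, and no direction can be read from them.

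Without G8 the balance turned. The fold change was then below 0 in 7 of the 10, against 48.4% of the 12761 genes tested without it, and no gene of the 10 reached an unadjusted *p* below 0.05, against 4.16% of all genes. G8 was the highest indole mouse in all 10 genes, so leaving it out lowers the indole group by construction. The 10 genes also moved together, and the count below 0 is a description. *Clec4f* (0.16), *Timd4* (0.14) and *Csf1r* (0.064) stayed above 0, and *Cd5l* turned to -0.27 and *C1qc* to -0.26. *Marco*, with the vehicle mouse G11 still in the fit, went to -0.84 (SE 0.490). Without G11 and with G8, *Marco* was instead at 0.30.

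**Figure D2:**
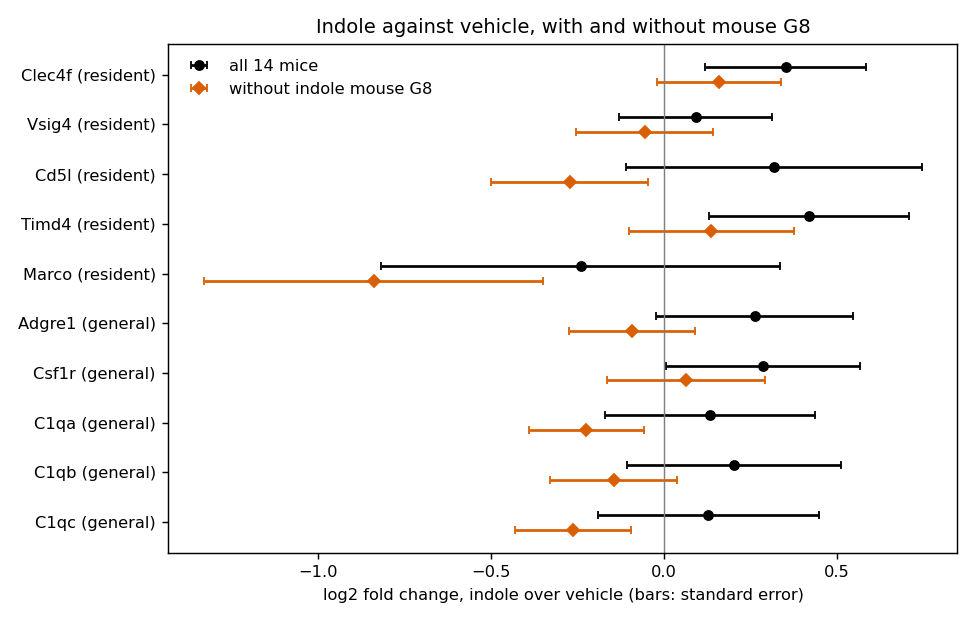
Log2 fold change of indole over vehicle for each of the 10 genes from edgeR, with bars of 1 standard error, for all 14 mice (black circles) and without indole mouse G8 (orange diamonds). Leaving out G8, the highest indole mouse in all 10 genes, moved all 10 values to the left by construction and put 7 of them below 0.

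The resident and the general genes moved together from mouse to mouse far more than they moved apart. The mean log2 CPM of the 5 resident genes ran from 2.99 (G10) to 4.52 (G11) in the vehicle group, with a median of 3.94, and from 3.46 (G12) to 5.31 (G8) in the indole group, with a median of 3.80. That of the 5 general genes ran from 3.29 (G10) over 4.07 to 4.41 (G11) with vehicle and from 3.29 (G12) over 3.96 to 5.37 (G8) with indole. The same mice marked the ends of both ranges in both groups.

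The difference of the 2 means, resident minus general, was read only for its change between mice, since its level depends on the genes' lengths. It was -0.36 (G6, lowest), -0.13 (median) and 0.11 (G11, highest) in the vehicle group, and -0.19 (G5), -0.14 and 0.17 (G12) in the indole group. G8, the highest of all mice in both means, was at -0.059, inside both ranges. G12, the lowest of its group in both means, was at the top. The difference between the group medians was -0.019, which is small against the SD of 0.182 among vehicle mice and 0.141 among indole mice, and its sign turned when the median of the 5 genes replaced their mean. The mice thus differed in how much macrophage RNA they held, and little in its balance between the 2 classes.

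**Figure D3:**
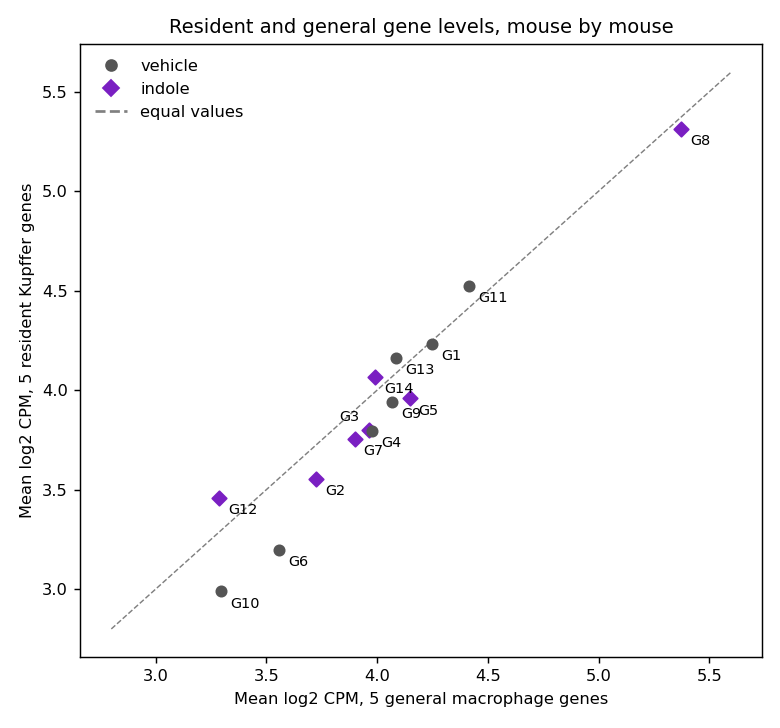
Mean log2 CPM of the 5 resident genes against that of the 5 general genes, 1 point a mouse, for vehicle (grey circles) and indole (purple diamonds), with a dashed line of equal values. The mice lie along the line from G10 and G12 at the lower left to G8, at 5.37 and 5.31, at the upper right.

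The even balance in G8 was a sum of unequal parts. Against the mean of the other 6 indole mice, *Marco* was higher in G8 by 2.29 and *Cd5l* by 2.21 on the log2 CPM scale. The C1q genes and *Adgre1* were higher by 1.57 to 1.71. *Timd4* was higher by 1.36, *Csf1r* by 1.17, *Clec4f* by 1.04 and *Vsig4* by 0.84. Resident genes thus stood at both ends of this order, with most of the general genes between them.

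Vehicle mouse G11, which had not received indole, had nearly the same order at a lower level. *Marco* was 2.17 and *Cd5l* 0.84 above the mean of the other 6 vehicle mice, the C1q genes and *Adgre1* were 0.55 to 0.60 above it, and *Csf1r* (0.45), *Clec4f* (0.27) and *Vsig4* (0.084) came last. *Timd4*, at 0.65, was the one gene that stood above the C1q genes in G11 and below them in G8. This order was noticed in these data, it rests on 1 mouse of each group, and no test was made of it.

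**Figure D4:**
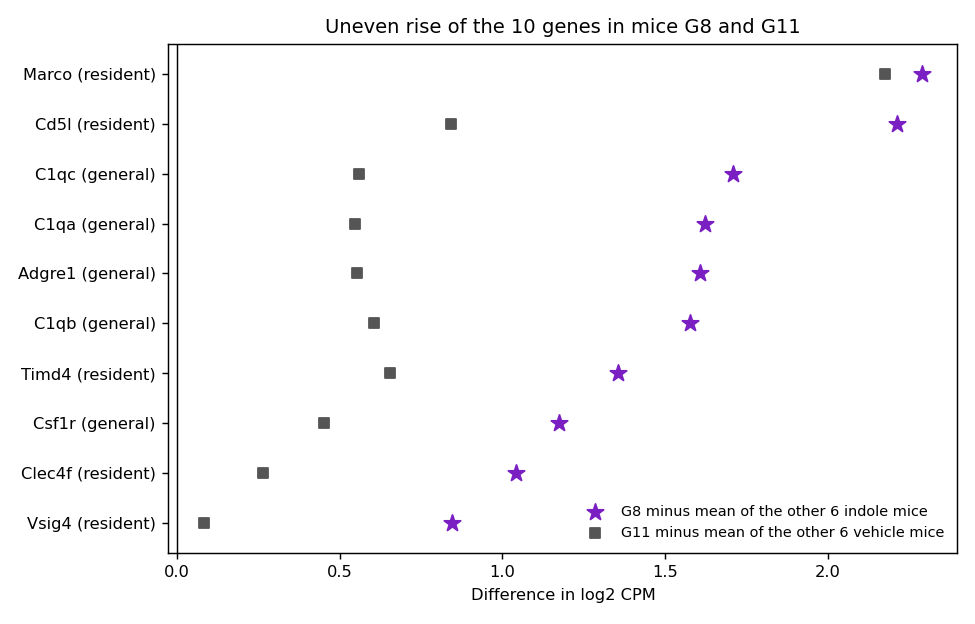
Difference in log2 CPM of indole mouse G8 from the mean of the other 6 indole mice (purple stars) and of vehicle mouse G11 from the mean of the other 6 vehicle mice (grey squares), for the 10 genes in the order of G8. *Marco* and *Cd5l* are at the top, with 2.29 and 2.21 in G8, and *Clec4f* and *Vsig4* at the bottom for both mice.

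The resident genes were also set against the general genes of the same mouse. The general genes themselves rose unevenly in G8, by 1.17 (*Csf1r*) to 1.71 (*C1qc*) on the log2 scale, so the amount of macrophages is not removed by this. Relative to the mean log2 CPM of the 5 general genes, *Vsig4* was lowest in G8 (-0.97), followed by G11 (-0.79) and the vehicle mouse G6 (-0.78). *Clec4f* was lowest in G11 (1.09) and G8 (1.13). *Cd5l* was highest in the same mice, at 1.64 in G8 and 1.31 in G11. *Marco* was highest in G11 (1.17), then in the vehicle mouse G13 (0.25) and in G8 (0.082). The mean of *Cd5l* and *Marco* minus that of *Clec4f* and *Vsig4* was 1.09 in G11 and 0.78 in G8, next 0.20 in G13, and below 0 in the other 11 mice. These combinations were chosen after the values had been seen.

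Set against the general genes, *Clec4f* lay between 1.09 and 1.53 in the vehicle mice (median 1.40), and between 1.47 and 1.78 in the 6 indole mice other than G8, so that the groups overlapped. The pair *Cd5l* minus *Clec4f* lay between -0.57 and 0.22 in the vehicle mice, between -0.87 and -0.53 in the same 6 indole mice, and at 0.51 in G8. These combinations were picked by their values, so no *p* is given, and *Clec4f* itself did not pass the test.

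**Figure D5:**
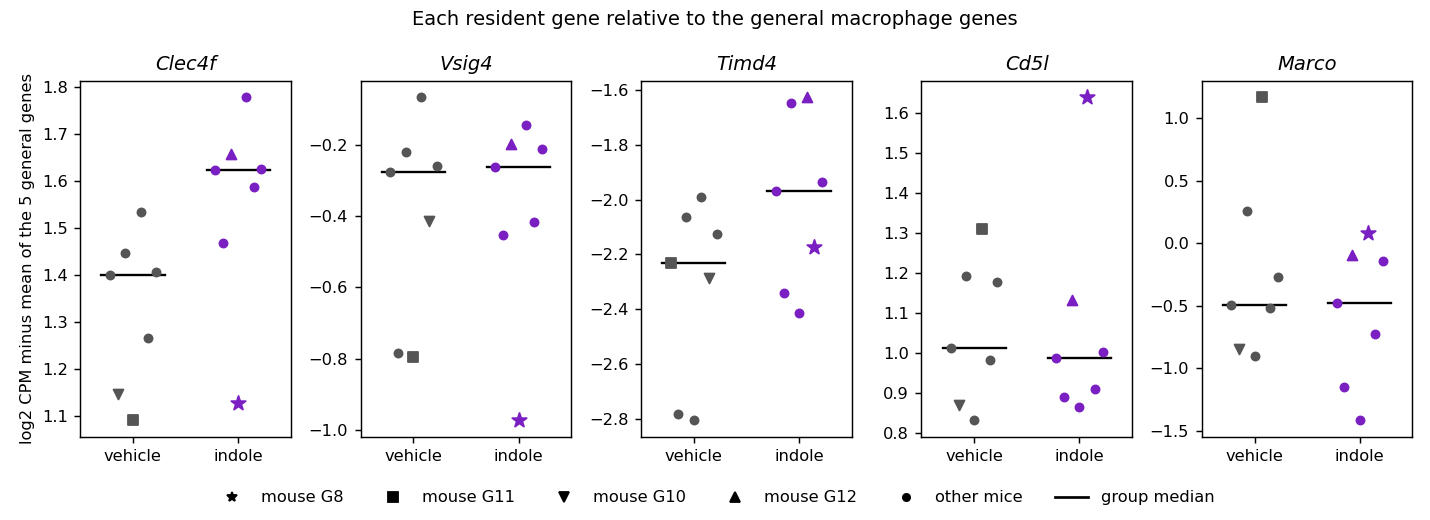
Log2 CPM of each resident gene minus the mean log2 CPM of the 5 general genes of the same mouse, vehicle (grey) and indole (purple), with a line at each group's median. In *Clec4f* 6 indole mice lie between 1.47 and 1.78 and the star (G8) falls to 1.13, while in *Cd5l* the star is at the top.

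Levels were compared between genes only per length, as CPM divided by the deposited gene length in kilobases (RPKM). The medians over the 14 mice were 20.3 for *C1qa*, 17.8 for *Clec4f*, 17.4 for *C1qb*, 15.4 for *Cd5l*, 10.3 for *C1qc*, 8.56 for *Vsig4*, 5.50 for *Marco*, 3.90 for *Csf1r*, 1.69 for *Adgre1* and 1.62 for *Timd4*. *Cd5l* was above *C1qc*, and *Csf1r* above *Adgre1*, in all 14 mice. *Clec4f* exceeded *C1qb* in 9 and *Adgre1* exceeded *Timd4* in 10 of 14, so the order of these neighbours is not settled by these mice. A gene used for its protein, F4/80, was thus near the bottom of the RNA levels.

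The C1q chains are assembled into one molecule in equal numbers. Per length, *C1qa* was 0.948 to 1.87 times *C1qb* (median 1.22), and *C1qc* was 0.504 to 0.708 times *C1qb* (median 0.620). In G8 these ratios were 1.20 and 0.628, within the range of the other mice, while the level of all 3 genes was 2.94 to 3.23 times the mean of the other indole mice. The widest ratio of *C1qa* to *C1qb*, 1.87, was in the vehicle mouse G6.

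Within the vehicle group the 10 genes varied more between mice than most genes. The SD of log2 CPM among vehicle mice was 0.217 for the median tested gene. It was 1.02 for *Marco*, above that of 99.1% of tested genes, and 0.326 for *C1qa*, the steadiest of the 10, above that of 71.7%. Among the 6 indole mice other than G8 these shares were lower for 9 of the 10, from 55.8% for *Vsig4* to 86.5% for *Marco*. Leaving out the highest indole mouse lowers this spread by construction, while the vehicle group kept its extremes, so the groups cannot be compared in it. With G8 the indole SD was above the vehicle SD in all but *Vsig4*, *Timd4* and *Marco*. It was then 0.870 for *Cd5l* (0.557 with vehicle) and 0.699 for *C1qa*. Spearman's rho between 2 genes over the 14 mice had a median of 0.736 within the resident genes, 0.747 within the general genes and 0.754 between the 2 classes. Without G8 these medians were 0.692, 0.684 and 0.692. By these medians a resident gene was as closely tied to a general gene as to another resident gene, but single pairs differed widely. Without G8, rho ran from 0.31 (*Clec4f* with *Marco*) to 0.80 (*Cd5l* with *Marco*) within the resident genes. Between the classes it ran from 0.27 (*Timd4* with *C1qa*) to 0.98 (*Cd5l* with *C1qb*). The 14 points of each pair share library depth and tissue make-up, and rho is given as a description.

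Among 11687 other genes with a mean of at least 1 CPM, *Folr2*, the gene of folate receptor beta, tracked both classes most closely, with a rho of 0.960 to the resident mean and 0.938 to the general mean over 14 mice (0.951 and 0.923 without G8). The resident mean was next followed by *Slc15a3* (0.916), the haemoglobin scavenger receptor *Cd163* (0.903), *Clec4n* (0.881) and *Slc7a8* (0.877). The general mean was next followed by *Sdc3* (0.890), *Klf6*, *Icam1* and *Slc15a3* (all 0.877).

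Lists of other liver macrophage genes had the dependence on G8 as well. Of 18 other Kupffer cell genes 17 had a fold change above 0, with a median log2 fold change of 0.18 against 0.0042 over all genes, and without G8 the median was -0.017. In this list 1 gene, *Cd38*, an enzyme that breaks down NAD, had an unadjusted *p* below 0.05 (log2 fold change 0.41, SE 0.154). *Cd38* was at 4.20, 5.81 and 8.19 CPM (lowest, median and highest) with vehicle and at 6.15, 7.59 and 10.5 CPM with indole. It stayed above 0 without G8 (0.36). Like every gene with an unadjusted *p* below 0.05 that is named from these lists, it had an adjusted *p* of 0.998. The most abundant gene of the list, *C6*, a complement protein also made by hepatocytes, was not raised in G8 (267 CPM, against 228 to 405 CPM in the indole group).

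Of 22 other general macrophage genes 20 were tested, 16 were above 0 (51.3% of all tested genes) and none reached an unadjusted *p* below 0.05. The median log2 fold change was 0.19 with G8 and -0.23 without it. Their summed level was 154 to 281 CPM in the vehicle group, 150 to 216 CPM in 6 indole mice and 758 CPM in G8. *Cd74*, the invariant chain of MHC class II and the most abundant of the list, was at 279 CPM in G8 and at no more than 44.6 CPM in the other indole mice. The excess in G8 was uneven here and in the list of other Kupffer cell genes. Among genes named after their values had been seen, *Mpeg1* (7.84-fold over the mean of the other indole mice) and the Fc receptors *Fcgr1* (8.18-fold) and *Fcgr4* (10.1-fold) had a larger fold excess than any of the 10 identity genes. So did the cytokine binder *Il18bp* (10.7-fold) of the Kupffer list. The Fc receptor folds rest on low values, with at most 0.851 CPM of *Fcgr1* and 1.25 CPM of *Fcgr4* in the other indole mice. *Mpeg1* was also high in vehicle mouse G11 (101 CPM, other vehicle mice at most 47.7 CPM). In contrast, *Mertk* (0.823-fold), *Lyz2* (0.865-fold) and, of the Kupffer list, the ficolin *Fcna* (0.951-fold) and *Id3* (0.953-fold) were not raised in G8. For *Mertk*, G8 was the lowest of the indole group (10.6 CPM, others up to 15.7 CPM).

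Markers of recruited and other blood cells were low, and some moved with G8. Of 14 monocyte genes 6 were tested and none had an unadjusted *p* below 0.05. Their sum was 13.8 to 20.7 CPM with vehicle, 13.9 to 17.9 CPM in 6 indole mice and 43.5 CPM in G8. There *Ccr2*, the receptor that brings monocytes out of the marrow, was at 3.03 CPM, against at most 1.33 CPM with vehicle and 1.05 CPM in the other indole mice. *Ly6c2* was at 2.09 CPM in G8, level with the highest vehicle mouse (2.09 CPM), and at most 1.79 CPM in the other indole mice. The most abundant of the list, *Plac8*, was at 12.9 CPM in G8 and at 3.91 to 6.23 CPM in the other indole mice. In G8, 5 of the 6 tested genes exceeded the average of the remaining indole mice. *Nr4a1*, named after its value had been seen, was lower (0.404 CPM, others up to 0.902 CPM). Of 16 T and NK cell genes only *Cd4* was tested (log2 fold change 0.67, SE 0.399), and their sum was 1.75 to 5.49 CPM with vehicle, 1.87 to 3.37 CPM in 6 indole mice and 13.5 CPM in G8. There *Gzmb* and *Gzma*, granzymes of cytotoxic cells, had 43 and 35 reads (24.4- and 23.9-fold over the mean of the other indole mice). *Cd3g*, *Trbc2* and *Nkg7* had 11 reads each in G8 (4.79-, 3.60- and 4.84-fold), and *Trac* had 1. *Cd3e*, *Cd8b1* and *Il7r* had 0 in G8, but at most 10, 4 and 6 reads in any library. These T and NK cell genes were named after their values had been seen, and most rest on few reads. Neutrophil genes summed to 0.467 to 2.77 CPM over all mice and none was tested. Whether blood cells had a part in the macrophage gene levels of G8 was not tested.

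Lipid-associated macrophage genes, which mark macrophages of fatty and scarred liver, summed to 68.9 to 84.3 CPM with vehicle, 51.7 to 76.5 CPM in 6 indole mice and 103 CPM in G8. Of 10 genes 7 were tested and 4 had a fold change below 0. *Trem2*, *Gpnmb* and *Itgax* were too low to be tested, with at most 12, 9 and 12 reads in any library. In G8 they had 0, 1 and 1 reads, so the sum there does not come from them. In G8, 5 of the 7 tested genes exceeded the average of the remaining indole mice. *Lpl* was at 31.0 CPM in G8, against at most 9.79 CPM in the other indole mice. *Fabp5* was lowest of the indole group in G8 (1.68 CPM, others up to 4.98 CPM). *Lpl* and *Fabp5* were named after their values had been seen. *Cd9* had an unadjusted *p* below 0.05 (log2 fold change -0.29, SE 0.125) with values of 14.2 to 19.4 CPM in the vehicle and 8.63 to 18.6 CPM in the indole group, the highest of these in G8. *Spp1*, the most abundant, was at 28.0 CPM in G8, inside both groups. Dendritic cell genes (2 of 10 tested, *Cd24a* the most abundant) held none with an unadjusted *p* below 0.05.

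The most marked companion of G8 was a list of interferon gamma response genes. Their sum was 138 to 237 CPM in the vehicle group, the highest in G11, then 116 to 150 CPM in 6 indole mice and 616 CPM in G8. In G8 all 11 tested genes exceeded the average of the 6 remaining indole mice, and in G11 10 exceeded that of the 6 remaining vehicle mice. The median difference of the list in G8 was 2.35 on the log2 scale, against -0.005 over all tested genes. *Psmb8*, an immunoproteasome subunit and the most abundant, was at 165 CPM in G8 and at most 41.3 CPM in the other indole mice, and the chemokine *Cxcl9* at 70.5 against at most 7.76 CPM. Over all 14 mice 6 of the 11 were above 0 (median log2 fold change 0.20) and none had an unadjusted *p* below 0.05. Without G8 all 11 were below 0, with a median of -0.29, and 6 had an unadjusted *p* below 0.05 (4.16% of all genes in that fit), among them *Cxcl9* (-1.86) and the GTPase *Gbp2* (-1.24). G8 was left out as the highest mouse of these genes, which lowers the indole group by construction, and this count is a description. No adjusted *p* was below 0.05 in that fit either. Vehicle mouse G4 came close to G11 in the interferon gamma genes (219.6 CPM), while its sum over the 10 macrophage genes, 189.5 CPM, was below the vehicle median of 202 CPM. The part of these genes in the macrophage gene levels of G8 was not tested.

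Of 14 transcription factors of macrophages 13 were tested and none had an unadjusted *p* below 0.05, and 12 were above the mean of the other indole mice in G8. Their median difference in G8 was 0.15 on the log2 scale, against -0.005 over all tested genes. *Spi1*, which encodes PU.1, was at 6.998 CPM in G8 and 1.58 to 3.46 CPM in the other indole mice, and *Spic* (4.39-fold) and *Irf8* (2.38-fold) were raised in G8 as well. *Irf7* was at 110 CPM in G8, against at most 13.3 CPM in the other indole mice, and at 74.2 CPM in G11, against at most 16.5 CPM in the other vehicle mice. *Irf7*, *Irf8*, *Spic*, *Cxcl9*, *Gbp2* and the granzymes were named after their values had been seen. *Maf* (27.1 CPM in G8, within 24.0 to 30.8 CPM) and *Nr1h3*, the liver X receptor alpha that hepatocytes share (106 CPM, within 89.3 to 108 CPM), did not stand apart. *Cebpb* was the most abundant, at 131 CPM in G8.

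Of 15 genes of the Kupffer cell niche 14 were tested and 1 had an unadjusted *p* below 0.05, the Notch ligand *Dll1* (log2 fold change -0.78, SE 0.281), at 1.40, 3.03 and 5.27 CPM with vehicle and 0.740, 1.87 and 2.30 CPM with indole. *Csf1* and *Il34*, the ligands of the *Csf1r* product, had log2 fold changes of -0.018 and 0.13, and *Gdf2*, the most abundant, was at 0.063. Among 11 complement genes that act with C1q, 10 were tested, 5 were above 0 and none had an unadjusted *p* below 0.05. *C3*, the most abundant, was at -0.15. In G8 all 10 were above the mean of the other indole mice, with a median of 0.53 on the log2 scale, against -0.005 over all tested genes.

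Of 12 scavenging receptors *Scarb1*, a receptor for high density lipoprotein that hepatocytes also make, had an unadjusted *p* below 0.05 (log2 fold change -0.21, SE 0.0824), and *Cd36*, the most abundant, was at -0.044. Of 12 genes of red cell clearance and iron handling none did, with *Ftl1* the most abundant. In this list the plasma scavengers *Hpx* and *Hp* were highest of their group in G8 and G11. *Hpx* was at 7662 CPM in G8 (other indole mice at most 3922 CPM) and at 6670 CPM in G11 (other vehicle mice at most 4118 CPM). *Hp* was at 2880 CPM in G8 (others at most 1872 CPM) and at 3951 CPM in G11 (others at most 2412 CPM). Both are liver acute-phase products, and they were named after their values had been seen. Of 17 macrophage chemokines and cytokines 6 were tested, with *Ccl9* the most abundant, and none had an unadjusted *p* below 0.05.

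Cells that share the sinusoid with Kupffer cells did not follow G8. All 12 sinusoidal endothelial genes had a fold change above 0 (median 0.25, and 0.27 without G8), against 51.3% of all tested genes. Of the 12, 2 had an unadjusted *p* below 0.05, against 3.81% of all tested genes: *Clec4g* (0.37, SE 0.141) and *Ptprb* (0.31, SE 0.136). The 12 genes are not independent of each other, and no test was made of the list. *Clec4g*, a lectin and the most abundant of the list, was at 18.2, 30.02 and 35.01 CPM with vehicle and at 25.5, 36.1 and 50.3 CPM with indole. The sum of the list was 217 CPM in G8, within the 163 to 292 CPM of the indole group, and 131 CPM in G11, the lowest of all 14 mice. The endothelial sum was thus not raised in either mouse.

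The hepatocyte genes had no excess in G8 either, with a summed level of 113224 CPM in a range of 88131 to 128212 CPM over the indole mice, most of it *Alb*. Of these 10 genes *Ttr* had an unadjusted *p* below 0.05 (log2 fold change 0.24). Of 10 stellate cell genes *Col1a1* did (-0.67), with *Ecm1* the most abundant, and of 5 tested bile duct genes *Krt19* did (-0.94), with *Spp1* the most abundant. *Igkc*, an antibody light chain, did so among 3 tested B and plasma cell genes (0.78), and at 1.28 CPM it was lowest of the indole group in G8. None of these lists held a gene with an adjusted *p* below 0.05.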

How the data were processed

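RNA from the right liver lobe of 14 TALLYHO mice was sequenced as strand-specific polyA libraries. The authors trimmed the reads, aligned them with HISAT2 to GRCm38 and deposited raw counts of uniquely mapped reads for 55487 genes, with each gene's coordinates and length. The counting tool is not given in the sources used here. Reads that map to more than 1 place were dropped by the authors, which can lower genes with close copies. The submitters' processing notes also name DESeq2.

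From these deposited counts, edgeR 4.0.16 in R 4.3.3 gave TMM-normalised values on the CPM scale, log2 CPM (prior count 2), and a robust quasi-likelihood test on the genes kept by filterByExpr, with Benjamini–Hochberg adjustment over all of them. The standard error is the log2 fold change divided by the square root of the F statistic. Single genes were also compared by a two-sided exact permutation test (smallest possible *p* 0.00058). DESeq2 1.42.0, limma 3.58.1 (voom), other scalings and filters, and fits without single mice were the alternatives. The test was checked on simulated data.

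At the lowest total of 15197498 reads, 1 CPM is about 15 reads, so the counting error is large for *Timd4*. Libraries of a group differed by far more than sampling noise (lowest chi-square per degree of freedom 15.7), and each label names 1 mouse. Groups were taken from the sample labels.

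The 10 genes, the gene lists, the motifs and the 2 mice set apart were chosen with earlier results of these data known. Named from each list are the tested gene of highest level per length and all those whose unadjusted *p* was below 0.05, beside the 5 genes whose Spearman's rho with each class mean was highest. Other names were added after their values were seen and are marked so, or stand as defining markers of their list. The *p* of a single gene is given over all tested genes, and sums and means over several genes have none.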

Additional observations from a re-analysis of the deposited data

Results flagged for a closer look

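A mouse was picked out when its gap to the nearest mouse of its group, divided by the range of the group of 7, exceeded Dixon's critical value for 7 mice. Of 86 such comparisons 22 did so, 19 of them for mouse G8 and 2 for G11. Chance picks about 1 in 20 groups, but the comparisons share these mice and some combine genes chosen from their values, so the count is a description and cannot be read against chance.

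In the indole group G8 was far above the rest in *Cd5l* (0.872), *C1qc* (0.796), *Marco* (0.775), *C1qb* (0.763), *Adgre1* (0.693), *C1qa* (0.691), *Timd4* (0.674) and *Clec4f* (0.602). *Vsig4* and *Csf1r* were highest in G8 too, with smaller gaps. The mean log2 CPM of the resident genes (0.673) and of the general genes (0.587) stood out in G8 likewise, while the difference of these means did not.

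Combinations of genes that were formed from the order seen in G8 also picked it out, which their choice had fixed: *Cd5l* minus *Clec4f* (0.753), *Cd5l* minus the general genes (0.656), *Cd5l* and *Marco* minus *Clec4f* and *Vsig4* (0.586), and *Vsig4* minus the general genes, where G8 was the lowest (0.629). Beside the 10 genes, the summed levels of the interferon gamma response genes (0.933), the other general macrophage genes (0.891), the T and NK cell genes (0.871), the monocyte genes (0.866) and the iron handling genes (0.579) were far above the other indole mice in G8.

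In the vehicle group G11 stood out in *Marco* (0.651) and in the sum of the iron handling genes (0.629), and mouse G6 in the per-length ratio of *C1qa* to *C1qb* (0.606). What sets these mice apart was not tested.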

How the results depend on the processing

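None of the 10 genes had an unadjusted *p* below 0.05 under any of the 24 alternatives, the smallest being 0.0633 for *Clec4f* without indole mouse G12. The log2 fold changes of *Clec4f*, *Timd4* and *Csf1r* stayed above 0 in all of them. The count of genes with an unadjusted *p* below 0.05 went from 482 to 1336 without a filter on low counts, where 22535 genes were tested, and lay between 386 and 627 when single mice were left out. DESeq2 on the 12653 genes called 1 gene at an adjusted *p* below 0.05, none of the 10. Without G8 and G11 together the median log2 fold change was -0.057 for the resident and -0.053 for the general genes, with *Vsig4* at -0.057, *Cd5l* at -0.13, *Adgre1* at -0.0052, *C1qa* at -0.14, *C1qb* at -0.053 and *C1qc* at -0.18. With limma voom and sample weights the medians were 0.082 (resident) and 0.020 (general), *C1qa* was at -0.046, *C1qc* at -0.059, *Cd5l* at 0.043, *Adgre1* at 0.020 and *C1qb* at 0.035. Leaving out single mice gave medians of -0.056 to 0.44 (resident) and -0.15 to 0.31 (general), the lowest in both cases without G8. For single genes it gave -0.056 to 0.21 for *Vsig4* (-0.0055 without G6), -0.27 to 0.46 for *Cd5l*, -0.84 to 0.30 for *Marco*, -0.093 to 0.38 for *Adgre1*, -0.22 to 0.25 for *C1qa*, -0.15 to 0.31 for *C1qb* and -0.26 to 0.25 for *C1qc*. The difference between the group medians of resident minus general was 0.089 with medians over the 5 genes, 0.15 with summed length-scaled values, and -0.075 to 0.024 when single mice were left out, all within the spread between mice. Apart from the lone mice, the cause of these turns was not tested. No paired analysis was possible because the labels give every mouse its own library number.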
